A study of Mus musculus with 35 samples.

Results

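The genes described here encode proteins of the cytosolic ribosome, the machine that translates nuclear-encoded mRNAs. The set was given as a list of 50 housekeeping genes, 31 for the large subunit (Rpl and Rplp genes) and 19 for the small subunit (Rps genes), by a rule that uses no measured value, although earlier results of these data were known when the set was proposed. Of these, 41 had a start and a strand in the RefSeq tables used, 25 of the large and 16 of the small subunit, and could be placed on the peak lists beside 17319 coding gene starts in all. The other 9 genes (Rpl3, Rpl7, Rpl8, Rpl30, Rpl32, Rplp1, Rps14, Rps20 and Rps29) are described separately. The comparison set was the 10535 other coding starts with an H3K4me3 peak within 1 kb in both wild-type P0 libraries, and together with the 41 genes these made 10576 starts marked at P0.

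Ribosomal protein genes are transcribed at high levels in nearly every cell, because each ribosome needs 1 copy of most of these proteins. Their mRNAs typically open with a C and an unbroken run of pyrimidines, the 5′ terminal oligopyrimidine (TOP) motif, through which growth signals acting on mTOR control their translation. Their promoters usually lie in CpG-rich DNA, where H3K4me3 marks the start of genes that are on or poised and H3K27Ac marks active promoters and enhancers. H3K27me3 is laid down by Polycomb complexes at repressed genes.

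All material was mouse retina, a bulk tissue of several cell types. Wild-type retinae were taken at postnatal day (P) 0, P14 and P21, with 2 libraries for each of H3K4me3, H3K27Ac and H3K27me3 at each stage, and at P12 with 1 library each for H3K4me3 and H3K27Ac and 2 for H3K27me3. Brg1-deficient retinae at P12 came from Chx10-Cre;Brg1 Lox/Lox mice and gave 2 libraries for H3K27Ac and 1 each for H3K4me3 and H3K27me3. The Chx10-Cre transgene acts in retinal progenitors in a mosaic pattern, so these retinae also hold cells that keep Brg1, the ATPase of the SWI/SNF chromatin remodelling complex. Animals with small eyes were preferred for this group. The map of Brg1 itself is 1 library from P0 mice of the Brg1-FLAG knock-in, which carry the FLAG tag on their own Brg1 gene, precipitated through the tag. The labels do not say whether libraries of a group came from separate animals. The paper describes the histone mark libraries that it shows by stage as biological duplicates, and the 2 Brg1-deficient H3K27Ac libraries as biological replicates. The tests measure the spread between libraries, which may in part be technical.

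Each library was given as a list of peaks, each with its fold enrichment at the summit, called height here. The number of reads is unknown from these lists. The H3K4me3 lists held 18534 to 24124 peaks and the H3K27Ac lists 17433 to 50005. The wild-type H3K27Ac lists of P14 replicate 1 (17433 peaks) and P21 replicate 1 (18718) were far shorter than those of replicate 2 (50005 and 45833). The list of P0 replicate 1 was as short (17588 peaks, against 29304 in replicate 2). It held a peak at 40 of the 41 genes and at 79.1% of the other marked starts. The lists of P14 and P21 replicate 1 are called the short later lists, and held one at 59.7% and 50.4% of those starts. Values that rest on a missing peak there are also given without that library where leaving it out moved them by over 1.5 times. Of 6 placed markers of retina, all had an H3K4me3 peak in all 8 H3K4me3 libraries and a Brg1 peak, among them Crx, Nrl and Otx2, and none of the 3 placed markers of other tissues had a peak in any of the 18 libraries. The start of Smarca4, the gene for Brg1, kept its peaks in the Brg1-deficient libraries (deposited H3K27Ac heights 15.98 and 18.59, against 14.71 in wild type), but a peak at the start does not test the deletion.

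The promoters that carry the results below are shown first, each with 100 bases before and 20 bases from the annotated start, 5′ to 3′ on the gene's own strand, from RefSeq on GRCm38.p6. Capitals mark a TOP-like run, defined as a C followed by 4 or more C or T that begins within 5 bases of the annotated start. Rps6, Rpl19 and Rps19 had the highest mean H3K27Ac height of the 41 genes, and Rpl22, Rpl35 and Rps3 the lowest. Rps25 was the one gene whose H3K4me3 changed in a test, and Rpl4, Rpl5 and Rpl6 are shown as examples of genes without an H3K27Ac peak in a short later list.
Rps6, chr4:86857348-86857467, minus strand: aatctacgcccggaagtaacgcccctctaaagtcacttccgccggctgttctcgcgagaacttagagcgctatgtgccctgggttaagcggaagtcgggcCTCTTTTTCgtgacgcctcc
Rpl19, chr11:98026610-98026729, plus strand: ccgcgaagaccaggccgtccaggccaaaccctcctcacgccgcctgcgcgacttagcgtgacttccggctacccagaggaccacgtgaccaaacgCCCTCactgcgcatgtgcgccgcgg
Rps19, chr7:24884492-24884611, plus strand: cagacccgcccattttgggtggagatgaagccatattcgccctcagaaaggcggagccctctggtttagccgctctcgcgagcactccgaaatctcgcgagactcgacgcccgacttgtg
Rpl22, chr4:152324336-152324455, plus strand: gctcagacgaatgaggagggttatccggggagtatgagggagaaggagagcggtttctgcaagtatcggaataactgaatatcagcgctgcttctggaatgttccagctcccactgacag
Rpl35, chr2:39005112-39005231, minus strand: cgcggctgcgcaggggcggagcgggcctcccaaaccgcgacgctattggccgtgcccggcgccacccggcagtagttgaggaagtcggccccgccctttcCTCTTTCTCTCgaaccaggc
Rps3, chr7:99483690-99483809, minus strand: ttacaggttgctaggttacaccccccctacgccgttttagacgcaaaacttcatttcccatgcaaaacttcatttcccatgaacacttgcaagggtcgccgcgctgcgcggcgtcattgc
Rps25, chr9:44407614-44407733, plus strand: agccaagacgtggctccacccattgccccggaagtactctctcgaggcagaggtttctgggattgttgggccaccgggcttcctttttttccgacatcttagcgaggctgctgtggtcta
Rpl4, chr9:64173287-64173406, plus strand: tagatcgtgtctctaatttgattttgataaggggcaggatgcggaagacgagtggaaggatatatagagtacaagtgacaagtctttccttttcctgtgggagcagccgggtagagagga
Rpl5, chr5:107900428-107900547, plus strand: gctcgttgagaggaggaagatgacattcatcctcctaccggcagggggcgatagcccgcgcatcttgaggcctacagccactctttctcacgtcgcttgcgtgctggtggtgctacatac
Rpl6, chr5:121204401-121204520, plus strand: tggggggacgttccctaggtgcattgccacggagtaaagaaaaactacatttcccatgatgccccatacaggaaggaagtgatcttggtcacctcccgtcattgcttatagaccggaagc

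A TOP-like run lay at the annotated start of 19 of the 41 genes (46.3%), against 18.3% of all 32851 promoters in the table and 19.8% of the other starts marked at P0. Rps6 begins with such a run of 9 bases at the annotated start itself, Rpl35 with one of 11 bases and Rpl15 with one of 13 bases. Rps25 has no run by this definition, although its printed promoter holds a pyrimidine tract shortly before the annotated start, so the count depends on how exactly the start is annotated. Searches on both strands, from 250 bases before the start to 50 after it, covered 6 short motifs, none of which contains another. CCGGAA, the core bound by ETS factors, was present in 19 of 41 promoters (46.3%), against 14.9% of all promoters and 27.4% of the other starts marked at P0. ATGGCG, the core of the YY1 site, was present in 12 (29.3%), against 8.93% and 15.6%. GGGCGG, the GC box of Sp1, was found in 22 (53.7%), above the 35.7% of all promoters and below the 68.0% of the other marked starts. CCAAT was found in 12 (29.3%, against 37.4% and 38.7%), TATAAA in 4 (9.76%, against 13.6% and 6.72%) and GCATGCGC, the site of Nrf1, in 1 (2.44%, against 2.71% and 5.44%). The median GC content of the 41 promoters was 59.0% (range 40.7 to 67.3%), between that of all promoters (52.7%) and that of the other marked starts (62.0%). Genes with the run had a median mean H3K27Ac height of 9.27 and genes without it 7.56, with H3K4me3 at 41.6 and 42.5, and these differences were not tested. These matches are descriptions of letters and were not tested as binding sites.

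H3K4me3 was present at these genes at every stage. Of the 41 genes, 40 had an H3K4me3 peak in all 8 libraries (94.7% of the other marked starts did), and all 9 genes without a strand did too. A peak at P0 is no finding for the 9, because their start was taken as the gene end that lay upstream of the P0 peak. The exception was Rpl22, an RNA-binding protein of the large subunit, which lacked a peak in P21 replicate 2. Rpl22 has 2 listed starts 1290 bp apart, and the upstream one was used here. When any listed start was allowed, its deposited H3K4me3 height in that library was 26.01 and it had a peak in all 8.

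In deposited heights the 41 genes had a median H3K4me3 height of 44.5 and 45.3 in the 2 P0 libraries, against 37.0 and 38.2 at the other marked starts. At P14 the medians were 37.0 and 40.4, against 32.8 and 33.9, and at P21 they were 70.7 and 26.5, against 61.7 and 23.1. The large difference between the P21 libraries was shared by the other starts, so ranks within a library were used beside scaled heights. The median rank of the 41 genes among the 10576 starts marked at P0 was the 68.1th and 68.5th percentile at P0, the 60.3th and 64.5th at P14, and the 64.7th and 61.0th at P21. It was 58.9 in wild-type P12 retinae. The median of these 41 genes therefore stood above the middle in every wild-type H3K4me3 library, but not at its top. In P0 replicate 1, 17 of 41 lay above the 75th percentile and 6 above the 90th. Their H3K4me3 peaks were also wider, with median widths of 1750 to 2176 bp in the 8 libraries, against 1525 to 1940 bp, and wider than the other starts in each library. No test was made of these genes against other starts.

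**Figure D1:**
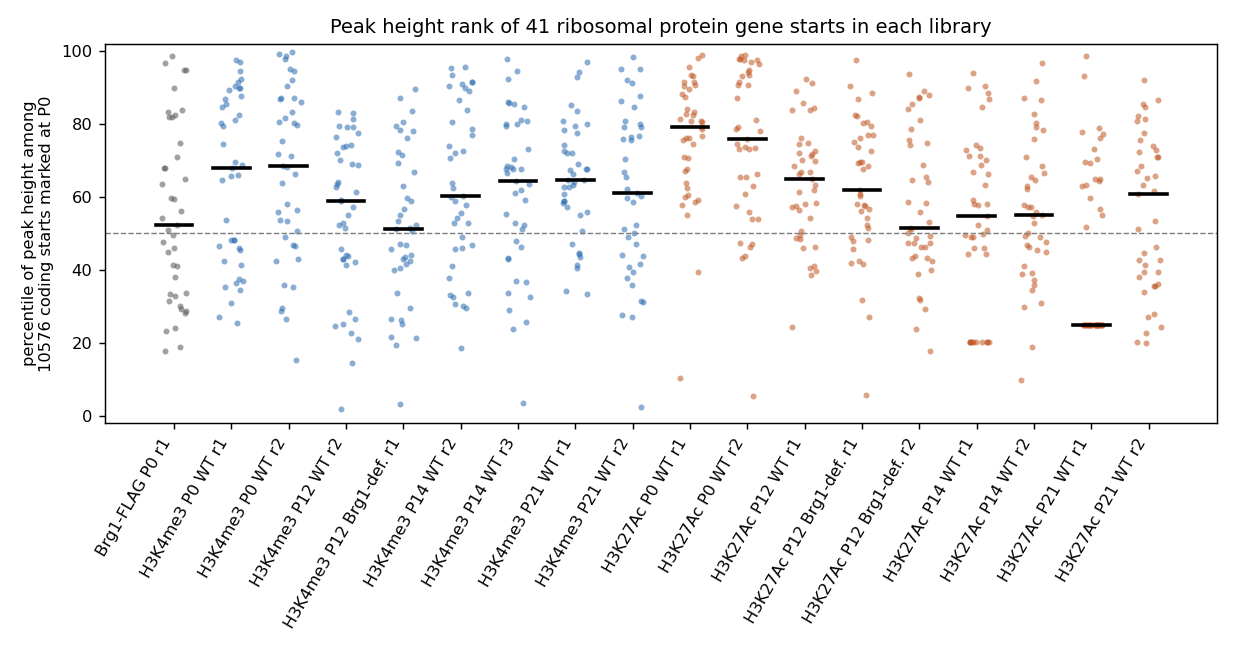
Each point is 1 of the 41 ribosomal protein gene starts in 1 library, the vertical axis gives the percentile of its peak height among the 10576 coding starts marked at P0 (starts with no peak share 1 low rank) and the bar is the median. H3K4me3 medians lie between 51.1 and 68.5, and the H3K27Ac medians of P0 (79.2 and 75.9) lie above those of every later library.

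The highest mean scaled H3K4me3 heights over the 6 wild-type libraries of P0, P14 and P21 were at Rpl14 (57.4), Rpl13a (56.3) and Rps23 (55.3). Scaling set the libraries of a mark to the same median over the starts with a peak in all 6. The lowest were at Rpl22 (27.4, at its upstream start), Rpl12 (29.2) and Rpl23 (31.3). Leaving out Rpl22, the range from lowest to highest was therefore from 29.2 to 57.4. Large and small subunit genes could not be ordered, because the small subunit median percentile was lower in P0 replicate 1 (59.7 against 74.6) and higher in P0 replicate 2 (84.6 against 53.8).

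Between stages, the test called a difference in H3K4me3 at 1 of the 41 genes. In P14 against P0, limma over 10731 starts called Rps25 higher and no gene lower, against 0.615% of starts called higher and 1.53% called lower. Rps25, a small subunit protein known for its role in translation from viral internal ribosome entry sites, had scaled heights of 25.5 and 21.2 at P0, 65.8 and 54.4 at P14, and 45.6 and 41.8 at P21. The P14 libraries lay above both P0 libraries, and so did those of P21. The log2 difference of P14 against P0 was 1.13 ± 0.26 (SE, n = 2 against 2, adjusted p = 0.0393 by limma with Benjamini-Hochberg adjustment). The call was lost without scaling, with only the P0 and P14 libraries in the fit, and when any 1 of the 6 libraries was left out, while the log2 difference without 1 library stayed between 1.01 and 1.25. Without scaling, 13 starts were called higher and 18 lower in place of 66 and 164. Its H3K27Ac went the other way in value, with scaled heights of 12.6 and 11.1 at P0, 8.78 and 7.36 at P14, and 0 and 5.93 at P21, and no difference in H3K27Ac passed the test.

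In P21 against P0, no gene of the set was called, against 0.913% of all starts called higher and 5.45% called lower, with 1 gene of the set higher and 3 lower at an unadjusted p under 0.05. Without scaling the split over all starts was 35 higher and 20 lower in place of 98 and 585, with none of the set. Rpl4, a large subunit protein at the exit tunnel of the ribosome, had scaled H3K4me3 heights of 57.8 and 68.0 at P0 and 43.7 and 32.8 at P21 (log2 difference -0.63 ± 0.27, limma adjusted p = 0.204). Rpl34 had 35.6 and 36.7 at P0 and 46.4 and 58.0 at P21 (0.44 ± 0.26, limma adjusted p = 0.406). The 2 stages did not overlap at either gene. Rpl22 had the lowest value (-1.06 ± 0.73, limma adjusted p = 0.521), which became 0.28 when any listed start was allowed.

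In P21 against P14, no gene of the set was called, and only 2 of all starts were called higher (0.0186%) and none lower (0%). Rpl15, a large subunit protein, had scaled heights of 59.5 and 51.2 at P14 and 27.6 and 26.2 at P21 (-0.87 ± 0.26, limma adjusted p = 0.733), after 26.4 and 36.0 at P0. Rpl13 went from 26.8 and 27.3 at P14 to 41.4 and 67.3 at P21 (0.81 ± 0.28, limma adjusted p = 0.733), after 49.1 and 57.2 at P0. Both genes thus had a P14 value apart from both other stages, high at Rpl15 and low at Rpl13. Rpl19 (-0.66 ± 0.27) and Rpl5 (0.63 ± 0.33) had the next largest values, and neither passed the test. Rpl5 was 0.20 without P14 replicate 2 and 1.07 without P14 replicate 3, Rpl19 was -0.42 without P14 replicate 3, and Rpl13 was 0.51 without P21 replicate 2. The median log2 difference of the 41 genes was -0.01 in P14 against P0, -0.02 in P21 against P0 and 0.02 in P21 against P14, beside -0.03, -0.08 and -0.07 over all starts tested. Ranks gave the same picture, since 9 genes ranked lower in both P14 libraries than in both P0 libraries (9 of 41, background 20.5%) and 10 in both P21 libraries (24.4%, background 22.1%).

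H3K27Ac stood high at the 41 placed genes at P0, and their median rank was lower at later stages. At P0, 40 of 41 genes had a peak in each library, against 79.1% and 89.2% of the other marked starts, with median deposited heights of 12.4 and 12.5 against 7.55 and 8.51. The median percentile was 79.2 and 75.9, and 39 and 35 of 41 genes lay above the 50th percentile. In wild-type P12 retinae all 41 had a peak and the median percentile was 64.9. At P14 the median percentile was 54.8 and 55.1, and at P21 it was 24.8 and 60.9. The 24.8 in P21 replicate 1 is the rank shared by all starts with no peak there, because only 19 of 41 genes had a peak in that short list (50.4% of the other marked starts). In P21 replicate 2 all 41 genes had a peak and the median was still below both P0 values.

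The genes that lost rank could be counted one by one. In both P14 libraries, 24 of 41 genes ranked lower than in both P0 libraries (58.5%, background 21.7% of all starts marked at P0), and 1 ranked higher (2.44%, background 23.0%). In both P21 libraries, 25 ranked lower (61.0%, background 22.6%) and 2 higher (4.88%, background 21.5%). Because a start that ranks high at P0 has more room to rank lower, the count was also set beside the 5441 starts with a mean P0 percentile above 50. Of these, 30.3% ranked lower in both P14 libraries and 33.5% in both P21 libraries, and 24 and 25 of the 40 genes of the set in that group did so. With 1 library left out, so that fewer values have to agree, the counts were 28 to 29 genes for P14, beside 33.4 to 39.7% of all starts under the same rule, and 29 to 31 genes for P21, beside 33.3 to 37.6%. The P14 and P21 replicates 1 had short lists and tied low ranks, and the part of list length in the ranks was not tested. In bulk retina, fewer cells that carry a mark at a start and less of the mark in each cell cannot be told apart.

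The same direction was seen in scaled heights, but no gene passed the test. In P14 against P0, 36 of 41 genes had a negative log2 difference (62.0% of all starts did) with a median of -0.54, against -0.15 over all 9832 starts tested. In P21 against P0, 36 of 41 were negative again (63.0% of all starts) with a median of -0.98, against -0.23. In both comparisons limma called none of the 41 genes and none of the 9832 starts in either direction (0%), while 718 and 1022 starts had an unadjusted p under 0.05, among them 2 and 5 genes of the set, all lower. In P21 against P14, the median of the set was -0.115, with 25 of 41 genes negative and 50.6% of all starts, no call (0%) and 109 starts at an unadjusted p under 0.05. The standard errors of the 41 genes ranged from 0.33 to 0.86 on the log2 scale, so differences of the size of these medians were not detectable gene by gene. Restricted to starts with a peak in all 6 libraries, 17 genes remained in the fit with medians of -0.37 and -0.34 and no call. Without P14 replicate 1 the P14 median was -0.45, against -0.01 over all starts, and without P21 replicate 1 the P21 median was -0.42, against 0.01. Without P21 replicate 2, which leaves the short list alone, the P21 median was -1.81, against -0.48.

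**Figure D2:**
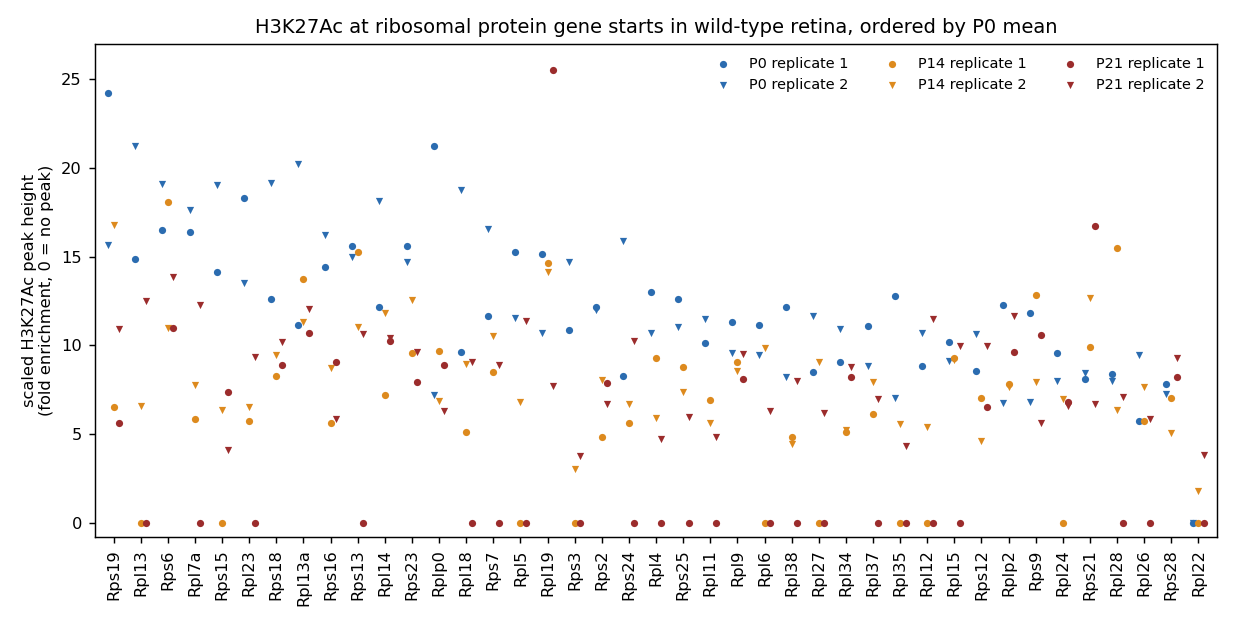
Scaled H3K27Ac height (fold enrichment, 0 where no peak was called) of each of the 41 genes in the 6 wild-type libraries, ordered by the P0 mean. The P0 points (blue) lie above the later ones at most genes on the left, and 22 genes have a point at 0 in P21 replicate 1.

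Rps3, a small subunit protein at the mRNA entry channel that also acts in DNA repair, was lower in every later library. Its scaled H3K27Ac heights were 10.9 and 14.7 at P0, 0 and 3.01 at P14, and 0 and 3.74 at P21. Both P0 libraries lay above all 4 later ones. The log2 difference was -1.83 ± 0.53 at P14 (limma adjusted p = 0.496) and -1.75 ± 0.53 at P21 (limma adjusted p = 0.323), and -1.37 without P14 replicate 1 and -1.20 without P21 replicate 1. Rpl13, a large subunit protein, had 14.9 and 21.2 at P0, 0 and 6.56 at P14, and 0 and 12.5 at P21. The value at P14 was -1.91 ± 0.86 (limma adjusted p = 0.7), and -1.12 without P14 replicate 1. Both P14 libraries thus lay below both P0 libraries in H3K27Ac as in H3K4me3, and neither difference passed the test.

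Rpl23, which binds and restrains Mdm2 when ribosome assembly is disturbed, had 18.3 and 13.5 at P0, 5.75 and 6.50 at P14, and 0 and 9.36 at P21 (P21 against P0, -1.58 ± 0.65, limma adjusted p = 0.475). The P21 value of Rpl23 was -0.59 without P21 replicate 1 and -2.60 without P21 replicate 2, so its size rests on which P21 library is kept. Rps15, a small subunit protein, had 14.2 and 19.1 at P0, 0 and 6.34 at P14, and 7.37 and 4.12 at P21. All its later values lay below both P0 values. Rpl11, the other well known partner of Mdm2 in this set beside Rpl5, had 10.1 and 11.5 at P0, 6.93 and 5.64 at P14, and 0 and 4.82 at P21. Rpl4 had 13.0 and 10.7 at P0, 9.30 and 5.88 at P14, and 0 and 4.74 at P21, so its H3K27Ac and its H3K4me3 were both lower at P21 than at P0 in every library.

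Few genes went the other way. Rps21, a small subunit protein, had 8.13 and 8.45 at P0, 9.91 and 12.7 at P14, and 16.7 and 6.71 at P21 (0.33 ± 0.44 at P14 and 0.29 ± 0.44 at P21, limma adjusted p = 0.894 and 0.781). The P21 libraries fell on both sides of P0, and the values came to 0.18 at P14 without P14 replicate 2, and to -0.21 and 0.80 at P21 without P21 replicate 1 and replicate 2. Rpl22 had positive values (0.32 and 0.57) only at its upstream start, where both P0 libraries had no peak. They were 0.67 without P14 replicate 1 and 1.16 without P21 replicate 1, and -0.17 and -0.87 when any listed start was allowed. Between P14 and P21, the largest values were at Rps13 (-1.29 ± 0.68), Rpl28 (-1.22 ± 0.63), Rpl24 (0.79 ± 0.57) and Rps15 (0.67 ± 0.58), each with a limma adjusted p of 1, and each rests on a library with no peak. Without P21 replicate 1, Rps13 came to -0.28 and Rpl28 to -0.42, and without P21 replicate 2 to -2.37 and -2.09. Without P14 replicate 1, Rpl28 came to -0.76, Rpl24 to -0.04 and Rps15 to -0.12, and without P14 replicate 2 Rpl24 came to 1.49 and Rps15 to 1.33. Rps15 was 0.41 without P21 replicate 1.

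The highest mean scaled H3K27Ac over the 6 libraries was at Rps6 (14.9), Rpl19 (14.6) and Rps19 (13.3). Rps6, the small subunit protein phosphorylated downstream of mTOR, had 16.5 and 19.1 at P0, 18.1 and 10.97 at P14, and 10.97 and 13.9 at P21. One of its P14 values lay between the P0 values and the other below them, both P21 values lay below, and it kept the 78.5th percentile or more in all 6. Rpl19 had 15.1 and 10.7, 14.7 and 14.1, and 25.5 and 7.70, with replicates of P21 on both sides of the other stages. Rps19, mutated in Diamond-Blackfan anaemia in humans, had 24.2 and 15.7, 6.53 and 16.8, and 5.60 and 10.9. The lowest means were at Rpl22 (0.93, at its upstream start), Rpl35 (4.96) and Rps3 (5.38). Rpl35 had 12.8 and 7.05 at P0, 0 and 5.59 at P14, and 0 and 4.29 at P21, below both P0 values throughout.

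Missing H3K27Ac peaks lay mostly in the short later lists. Of 41 genes, 17 had an H3K27Ac peak in all 9 libraries (46.2% of the other marked starts), and 40 did without P14 replicate 1 and P21 replicate 1 (74.4% of the other marked starts), the exception again being Rpl22. In P14 replicate 1, 31 of 41 genes had a peak, against 59.7% of the other marked starts. The 10 genes without one there included Rpl5, Rpl6, Rpl12, Rpl13, Rpl27 and Rps3. In P21 replicate 1, 19 of 41 had a peak, against 50.4% of the other marked starts. The 22 without one there included Rpl4, Rpl5, Rpl6, Rpl7a, Rpl11, Rpl12, Rpl13 and Rpl15. A peak was present in P21 replicate 1 at 8 of 25 large subunit genes and at 11 of 16 small subunit genes, a split noticed after the values were seen and not tested. The small subunit median percentile was higher in both P0 libraries (81.7 and 91.2 against 76.3 and 73.3), both P14 libraries (62.2 and 60.5 against 49.9 and 50.1) and both P21 libraries (61.4 and 63.4 against 24.8 and 53.5), but lower in wild-type P12 (62.6 against 66.8). Where peaks were called in the 2 short later lists, they were narrow at these genes, with a median width of 397 and 344 bp against 639 and 617 bp at the other starts. In the longer lists of replicate 2 they were wider at P14 (1277 against 1198 bp) and narrower at P21 (857 against 1021 bp). In P0 they were wider in both libraries, with 677 and 1166 bp against 579 and 887 bp.

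The 9 genes without a strand did not, as a set, share the lower H3K27Ac ranks of the later stages. At P0 their median H3K27Ac percentile was 63.7 and 85.6, at P14 it was 71.6 and 78.2, and at P21 it was 78.8 and 60.6. Only 2 of the 9 ranked lower in both P14 libraries than in both P0 libraries and 2 in both P21 libraries, while 3 and 2 ranked higher. Of all starts marked at P0, 21.7% and 22.6% ranked lower, so the counts of these 9 lay near the background. Rpl8 lacked a peak in both short later lists and Rps29 in that of P21.

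Neighbouring genes share some of these peaks. At 6 of the 41 genes another coding start lay within 1 kb, always on the opposite strand (14.9% of the starts marked at P0 had one), namely Med22 at Rpl7a, Lrsam1 at Rpl12, Lias at Rpl9, Sphk2 at Rpl18, Ndufa7 at Rps28 and Vps52 at Rps18. The distances ranged from 10 to 165 bp, so the peaks of such a pair cannot be told apart. The median H3K27Ac percentile of these 6 was 77.0 at P0, 54.4 at P14 and 60.1 at P21, beside 76.0, 54.7 and 49.0 at the other 35.

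Other genes of the translation machinery were read in the same way. Lists of related genes were taken from general knowledge. Of 29 other cytosolic ribosomal protein genes 17 could be placed, and their median H3K27Ac percentile was 74.0 and 63.0 at P0, 60.2 and 44.6 at P14, and 67.9 and 55.5 at P21. Of these 17, 6 ranked lower in both P14 libraries and 3 in both P21 libraries (35.3% and 17.6%, background 21.7% and 22.6%). The difference from the 41 genes was not tested. The 21 placed translation factors (initiation and elongation factors and their partners) ranked at 84.7 and 85.8 at P0, 79.1 and 86.0 at P14, and 78.4 and 67.5 at P21, with 6 and 7 ranked lower (28.6% and 33.3%). The 27 ribosome biogenesis genes marked at P0 ranked at 62.7 and 64.9, 58.7 and 59.4, and 57.2 and 51.0, with 10 and 8 ranked lower (37.0% and 29.6%). The 68 genes for mitochondrial ribosomal proteins, which build a separate ribosome, ranked at 58.1 and 58.4, 58.4 and 51.3, and 37.4 and 59.2, with 15 and 14 ranked lower (22.1% and 20.6%, near the background). Of the 8 ribosomal protein paralogs 7 could be placed, 4 were marked at P0, and 0 ranked lower. By H3K4me3 the 17 other cytosolic genes had median percentiles of 60.3 and 32.9 at P0 and 63.9 and 53.5 at P14. At P21 they had 65.3 and 41.7, so they lay below the middle in replicate 2 of P0 and of P21. Translation factors had 91.6 and 76.0 at P0, biogenesis genes 66.9 and 73.6, and mitochondrial ribosomal protein genes 58.4 and 71.2. In no list did limma call a gene in H3K27Ac or H3K4me3, apart from Rps25.

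**Figure D3:**
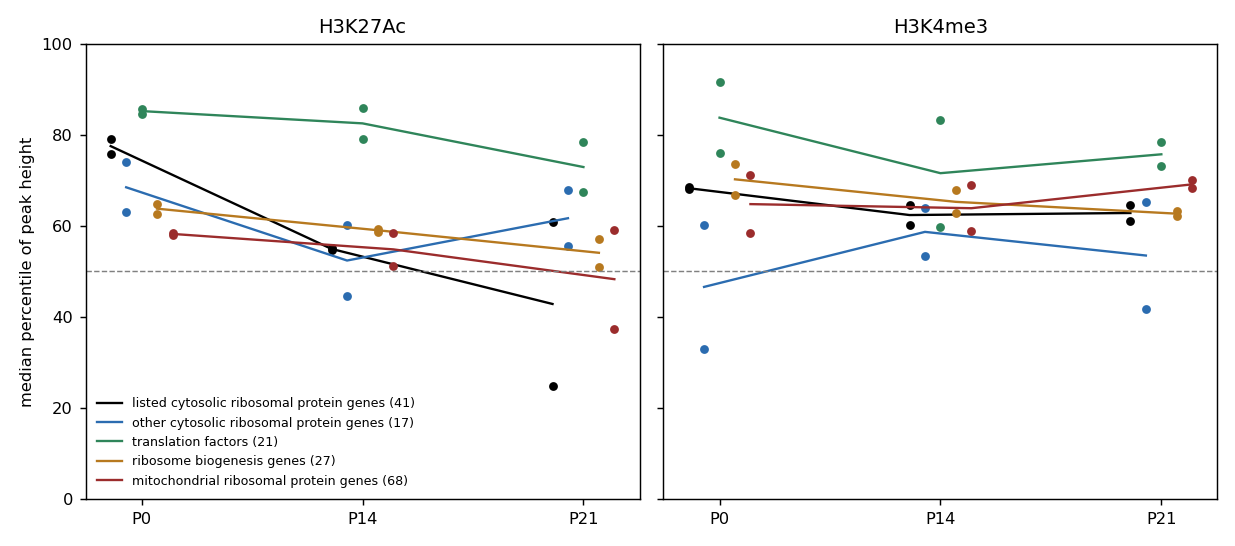
Median percentile of H3K27Ac (left) and H3K4me3 (right) peak height among the starts marked at P0, in the 2 wild-type libraries of each stage (points) with their mean (lines), for the 41 genes and 4 related lists with the number of starts in brackets. In H3K27Ac the 41 genes go from 79.2 and 75.9 at P0 to 54.8 and 55.1 at P14.

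Brg1 was found at all of these genes in P0 retina, but not strongly. All 41 genes had a Brg1 peak within 1 kb (83.0% of the other marked starts), and so did all 9 genes without a strand. By height they were ordinary, with a median of 5.53 (range 3.01 to 13.5) against 5.34 at the other marked starts. Their median percentile was 52.4. Other starts without a Brg1 peak entered these comparisons as 0. Among all coding starts with a Brg1 peak the median percentile of the 41 genes was 44.6. Of 41, 10 lay above the 75th percentile and 4 above the 90th. Rps6 had the highest Brg1 height (13.5, percentile 98.6), followed by Rpl13a (11.8) and Rps24 (10.8, percentile 94.9), a small subunit gene mutated in Diamond-Blackfan anaemia. Rpl19 was next with nearly the same height (10.75). The lowest were Rpl23 (3.01), Rplp2 (3.33) and Rps3 (3.79). With 1 library these heights have no replicate check. At the genes of mitochondrial ribosomal proteins 46 of 68 had a Brg1 peak (67.6%, beside 83.0% of the other marked starts), with a median percentile of 28.7. Brg1 was present at 15 of the 17 other cytosolic ribosomal protein genes, 21 of 21 translation factors and 23 of 27 biogenesis genes.

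In Brg1-deficient P12 retinae most of these genes had both marks within 2-fold of wild type. There was 1 wild-type library per mark, so no test was made and the ratios compare libraries. By rank the 41 placed genes stood somewhat lower in the Brg1-deficient libraries, and the 9 genes without a strand did not. The median percentile of the 41 was 51.1 against 58.9 in wild type for H3K4me3, and 61.9 and 51.6 against 64.9 for H3K27Ac. That of the 9 was 68.6 against 58.3 for H3K4me3, and 75.2 and 72.0 against 70.6 for H3K27Ac. For H3K4me3 all 41 genes had a peak in both libraries, and the median log2 ratio of Brg1-deficient over wild type was 0.03, equal to the 0.03 over all 10365 starts. No gene was more than 2-fold higher (2.25% of starts were) and 2 were more than 2-fold lower (4.88%, background 2.46%). For H3K27Ac 40 genes had a peak in all 3 libraries, the median log2 ratio was -0.05 against -0.02 over 8940 starts, and none was past 2-fold in both Brg1-deficient libraries, either higher (1.03% of starts) or lower (0.336%). Replicates gave a measure of the noise: between the 2 Brg1-deficient H3K27Ac libraries 2 of 40 genes differed by more than 2-fold (5.38% of starts), and between the 2 wild-type H3K4me3 libraries of a stage 1 of 41 did at P0 (5.29%), 4 of 41 at P14 (8.36%) and 0 of 40 at P21 (7.02%).

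The 2 genes past 2-fold in H3K4me3 were Rps6 and Rps24, both among the 3 placed genes with the highest Brg1 peaks at P0. Rpl7, a gene without a strand, had a higher Brg1 peak (11.53) than Rps24. Its H3K4me3 percentile was 75.9 in wild type and 88.6 in the Brg1-deficient library, so it did not rank lower there. A link between Brg1 height and these ratios was not tested. Rps6 had a scaled H3K4me3 height of 54.2 in wild type and 23.7 in the Brg1-deficient library (log2 ratio -1.19). Its scaled H3K27Ac height was 20.7 in wild type and 9.41 and 17.3 in the Brg1-deficient libraries (mean log2 ratio -0.70), so 1 of these libraries stayed near wild type. Rps24 had 45.0 and 22.1 for H3K4me3 (-1.03), and 11.4 against 6.97 and 7.18 for H3K27Ac (-0.69), where both libraries were lower. Rpl13a, the remaining gene of the 3, and Rpl19, close behind in Brg1 height, were not past 2-fold in either mark. The largest positive H3K27Ac ratios were at Rpl14, with 9.47 in wild type and 19.2 and 17.5 in Brg1-deficient retinae (0.95), and at Rps18, with 12.2 against 13.8 and 18.2 (0.38). In H3K4me3 the largest was at Rps2 (25.5 against 49.2, 0.95). Across the 40 genes the ratios of the 2 marks went together (Pearson r = 0.61, Spearman rho = 0.51), as they did over all 8811 starts with both (r = 0.42 and rho = 0.42). These points share their libraries and base composition, and the 2 marks may share input libraries, so the values are descriptions. Without scaling 9 genes passed 2-fold lower in H3K4me3, but so did 18.2% of all starts.

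**Figure D4:**
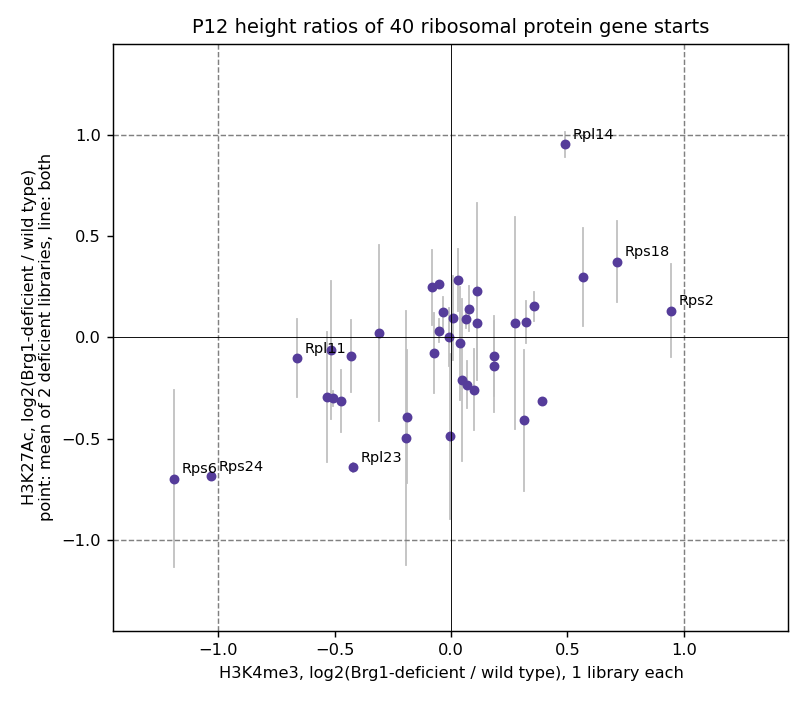
Log2 ratio of Brg1-deficient over wild-type P12 height for H3K4me3 (horizontal, 1 library each) and H3K27Ac (vertical, point at the mean of 2 Brg1-deficient libraries, grey line joining them) at 40 ribosomal protein genes, with dashed lines at 2-fold. Most genes lie near 0, and Rps6 (-1.19) and Rps24 (-1.03) lie past 2-fold in H3K4me3.

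H3K27me3 was rare at these genes. At P0, 3 of 41 had an island (a stretch called as enriched) within 1 kb in both libraries (7.32%, background 23.3% of the other marked starts), at P14 and P21 1 did (2.44%, background 20.8% and 22.1%), and at P12 1 did in wild type (background 25.5%) and 0 in the Brg1-deficient library (background 28.5%). The 9 genes without a strand had none in any of the 9 libraries. Rpl26, a large subunit protein that also binds p53 mRNA, had an island in all 8 wild-type libraries and none in the Brg1-deficient one. Rpl5 had one in both P0 libraries, P14 replicate 2, P21 replicate 1 and P12 replicate 1, and Rpl22 in both P0 libraries. Rpl11, Rpl13a and Rpl38 had one in 1 P0 library each. With an island over the start itself required, 2 genes were left in P0 replicate 1, 1 in P0 replicate 2 and 0 in the other 7 libraries, against 20.3 to 27.3% of the other marked starts. The P12 libraries used another antibody than the other stages, and the groups were not compared with each other.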

How the data were processed

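ChIP-Seq peak lists of mouse retina were analysed for 18 libraries of Brg1, H3K4me3 and H3K27Ac and 9 of H3K27me3. The 8 input libraries were not analysed here. Wild-type retina had 1 input library at each of P12, P14 and P21. Peak lists of such a stage may therefore share an input, whose variation the spread between libraries would not include. The submitters' processing notes name CASAVA, BWA 0.5.9-r26, Picard 1.65, SAMtools, MACS2 2.0.9, bedtools 2.17.0, SICER 1.1, R 2.14.0 and mm9. The authors deposited 1 list per library with, for each peak, the fold enrichment (a ratio) at the summit, a score, and −log10 p-values and q-values. The deposited H3K27me3 islands carry a score, which was not used. Depth is unknown from these lists.

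GRCm38.p6 starts (RefSeq, most upstream listed start) were moved to mm9 by the local offset that put most coding starts within 5 Mb near a P0 H3K4me3 peak, the 41 genes left out. After the data were seen, the search was widened from 4 to 10 Mb, and neighbours were weighted by distance (1 Mb scale) and centred on the nearest 15 starts, because equal weights missed genes near build breaks. The highest peak within 1 kb gave the height, or 0. Genes with no strand in the tables were kept out of the tests.

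Heights were scaled to the same median and compared between stages with limma 3.58.1 in R 4.3.3 on log2(height + pseudocount) (7.46 for H3K4me3, 3.2 for H3K27Ac), 6 libraries in each fit, for starts with a peak in at least 2, with Benjamini-Hochberg adjustment at 0.05. Such fold changes understate those of low starts. The fit was tested on simulated data. Python 3.11.15, numpy 2.4.6, pandas 2.3.3 and matplotlib 3.10.9 were used for the rest. The genes, lists and tests were chosen with earlier results of these data known. Genes were named by a fixed rule: extremes of mean height, called genes, or the 2 largest differences in each direction, genes lacking a peak, and genes with an island. Rps15, Rpl11 and H3K27Ac at Rpl4 and Rps25 were named after their values were seen. The H3K4me3 P14 libraries are titled replicates 2 and 3.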

Additional observations from a re-analysis of the deposited data

How the results depend on the processing

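The number of genes called did not change for H3K27Ac, where it was 0 in every comparison and alternative. For H3K4me3 P14 against P0, the 1 call became 0 without scaling and with only the libraries of those stages, and 0 in each fit without 1 library. It stayed at 1 under the other alternatives. In P21 against P0, a replicate block gave 1 call, Rpl22 (log2 difference -1.07, limma adjusted p = 0.00254), and over all starts 198 calls higher and 1200 lower, against 105 and 611 in the same 4 libraries without the block. No other number of calls in the set changed with the block. Same-numbered libraries did not deviate together in every pair (r of 0.15, 0.06 and 0.48 for H3K27Ac, and 0.12 for H3K4me3 at P0 and P21, with 1 pair of stages), so the number was not taken as a pairing, and no paired analysis was possible for H3K4me3 against P14 because those stages share 1 number. Rpl22 in H3K4me3 P21 against P0 reversed to 1.49 and 0.283 with equally weighted 5 Mb and 2 Mb offsets, 0.281 with any listed start and 0.43 without P21 replicate 2, within a range of -2.42 to 0.43 over the libraries left out. In H3K27Ac it reversed with the 2 Mb offset and any listed start to -0.162 and -0.165 at P14, and to -0.873 and -0.872 at P21. Rps21 at P21 reversed to -0.105 without scaling and -0.213 without P21 replicate 1 (range to 0.798). Without P14 replicate 1, Rpl24 and Rps15 in P21 against P14 reversed to -0.044 and -0.121 (ranges to 1.49 and 1.33). Over all starts, the H3K27Ac fit with a peak in all 6 libraries called 37 higher and 4 lower at P14 and 53 and 3 at P21, in place of 0. Without scaling the median of all starts in H3K27Ac P21 against P0 went from -0.231 to -0.484, with the set at -0.988.

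At P12, the genes past 2-fold in H3K4me3 went from 2 to 9 without scaling and 5 at 1.5-fold, and in H3K27Ac from 0 to 1 without scaling, 3 at 1.5-fold, and 1 and 2 without Brg1-deficient replicate 1 and replicate 2. With the upper 50% of peaks by q-value, 10 genes had H3K27Ac in every library, and without the 2 short lists 40 did. Among all coding starts with a peak, the mean of the H3K27Ac median percentiles was 74.7 at P0 and 45.4 at P14. For P14 it was 55.9 with a 500 bp window and 52.7 with the equally weighted 5 Mb offset, and for H3K4me3 at P0 68.9 and 70.5, with 69.6 for 2 Mb. Leaving out 1 library of a stage gave 75.9 to 79.2, 54.8 to 55.1 and 24.8 to 60.9 for H3K27Ac at P0, P14 and P21, and 68.1 to 68.5, 60.3 to 64.5 and 61.0 to 64.7 for H3K4me3. Islands over the start itself were 1 at P0 and 0 at P12, P14 and P21. The summit lay a mean of 284 bp (H3K4me3) and 235 bp (H3K27Ac) after the start at P0, but 170 and 81 bp with the 2 Mb offset and 162 and 64.5 bp with the 5 Mb one, so it is not read further. The equal weights, any listed start, the counts by rank, and the short-list and percentile leave-outs were chosen after seeing the data. Depth is unknown and limits every list, since a weak peak is recorded as 0.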
